A study of Macaca mulatta with 13 samples.

Results

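Leukocyte gene expression of rhesus macaques reared without their mothers was set against that of macaques reared by their mothers, with attention to pathways and gene families rather than to the largest single changes. The comparison took all 13 arrays of the series, 4 with the label peer reared and 4 with surrogate-peer reared, here called the 8 nursery arrays, against 5 labelled as maternally reared. All samples were total RNA of peripheral blood mononuclear cells from macaques aged 4 months, each hybridised to an Affymetrix rhesus genome array, and the series asks whether expression differs with early rearing. The 2 nursery groups were given equal weight, so the difference reported is the mean of their group means minus the maternal mean. The labels do not state that each array came from a different animal, nor the sex, the cell counts or the day of sampling, and p-values measure the spread between these arrays only.

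Peer-reared macaques grow up with infants of their own age and without adults. Surrogate-peer-reared macaques live with an inanimate mother substitute and meet peers for a limited time, and both schemes are widely used to study the loss of maternal care. Mononuclear cells of the blood are a mixture of T cells, B cells, natural killer cells, monocytes and a few dendritic cells and basophils, so a transcript can be lower because fewer cells of a type were present or because each held less of it, and bulk RNA cannot tell these apart.

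The maternal arrays differed from the nursery arrays as arrays. Their log2 ratio of 3' to 5' control signal, which rises as RNA shortens, ran from 1.55 to 2.23 against 1.33 to 1.74 on the nursery arrays. The SD of all log2 values was 2.10 to 2.12 on the maternal and 2.13 to 2.16 on the nursery arrays, and the median of the tested values 7.65 to 7.71 and 7.73 to 7.76, so that on both measures the groups did not overlap. Whether all arrays were normalized together is not stated, and the part of this narrower maternal spread in the differences was not tested. Maternal arrays 2 and 5 had the highest summed monocyte markers of their group, and the 9 measured of 10 markers averaged -0.56 to 0.80 on the maternal, -0.53 to 0.29 on the peer and -0.57 to 0.72 on the surrogate-peer arrays, each relative to its mean over 13 arrays. A gene's difference also depended on its brightness: the median difference was -0.08 in the dimmest 20% of genes and 0.10 in the next-to-brightest, and 1.66% and 9.37% of genes were called higher there. After quantile normalization these medians were -0.07 and 0.01. The part that RNA length, cell mixture or brightness has in any family below was not tested.

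**Figure D1:**
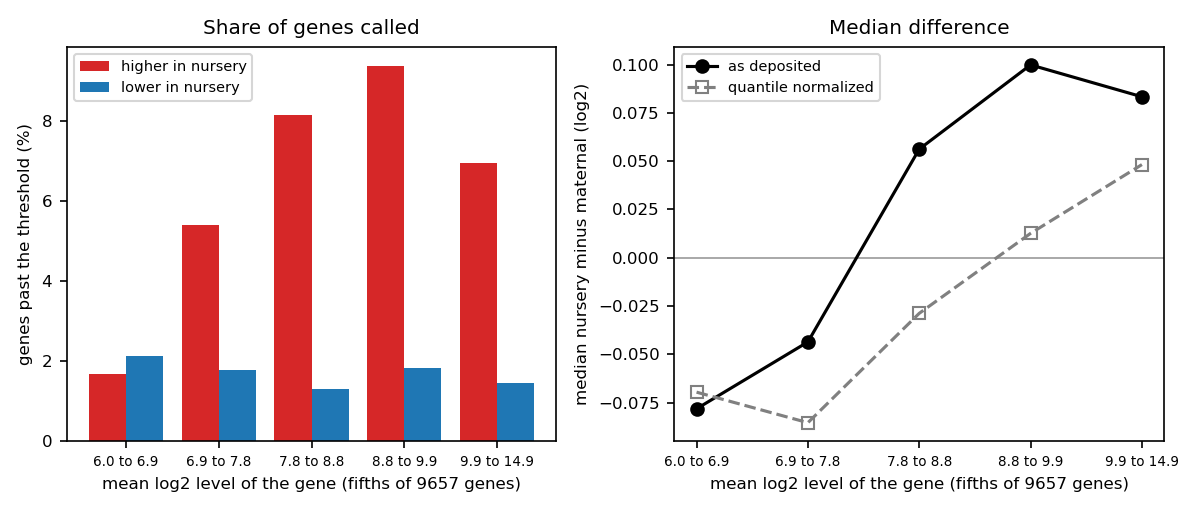
Left, the share of genes called higher (red) or lower (blue) in nursery arrays, in percent, over 5 equal bins of genes by mean log2 level; right, the median log2 difference in each bin, for the deposited values (black) and after quantile normalization (grey). The median runs from -0.08 in the dimmest bin to 0.10 in the next-to-brightest.

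Of 26352 probe sets tested with limma, 2107 passed an adjusted p of 0.05 and are said to be called, 1751 of them (6.64%) higher in the nursery arrays and 356 (1.35%) lower. Taking for each of 9657 genes its brightest tested probe set, 608 genes (6.30%) were called higher in the nursery arrays and 163 (1.69%) lower, around a median difference of 0.01. All 8 nursery arrays lay above all 5 maternal arrays for 153 genes (1.58%) and below them for 102 (1.06%). Each of the 771 called genes differed in the same direction in the peer and in the surrogate-peer group, which share the maternal arrays as their reference. The genes were called on the mean of these 2 groups, so a shared direction was largely set by that choice. Between surrogate-peer and peer arrays limma called 0 probe sets, with 483 at an unadjusted p under 0.05. The share of called probe sets that were higher was 83.1%, but 56.7% with each array centred on its median and 66.3% after quantile normalization.

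The number called depended on which arrays were kept. It was 4830, 1217, 1190, 29 and 57 without maternal array 1, 2, 3, 4 or 5 in turn. It was 311, 764, 989 and 891 without peer array 1, 2, 3 or 4, and 1384, 1324, 497 and 1223 without surrogate-peer array 1, 2, 3 or 4. Without both maternal arrays 2 and 5 it was 37. All 2107 called probe sets kept their sign in each of these fits. They were selected on the full set of arrays, so this was largely set in advance and is no separate support. Of the 168 genes named below, 4 stayed called without maternal array 4, 7 without maternal array 5 and 68 with the 3' to 5' ratio as a covariate, so the adjusted p-values below hold for the full set of arrays.

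The genes called with the smallest p were mostly modest in size and included several that act on RNA. TRNT1, the enzyme that adds the terminal CCA to transfer RNA, measured 6.89, 6.82, 6.81, 6.72 and 6.55 on the 5 maternal arrays and between 7.07 and 7.42, with a median of 7.30, on the 8 nursery arrays. All nursery arrays lay above all maternal arrays, and the difference was 0.54 ± 0.07, adjusted p = 0.015 (log2, ± the standard error of the fit). TDP2, which repairs DNA ends blocked by topoisomerase, measured 9.80, 9.74, 9.76, 9.71 and 9.67 on the 5 maternal arrays and between 10.08 and 10.42, with a median of 10.16, on the 8 nursery arrays, again without overlap (0.46 ± 0.07, adjusted p = 0.0173). The arginine methyltransferase PRMT6 (0.80, adjusted p = 0.0203), the minor-spliceosome factor RBM48 (0.83, adjusted p = 0.0203), the RNA exosome subunit EXOSC3 (0.61, adjusted p = 0.0203) and VMA21 (0.76, adjusted p = 0.0203), an assembly factor of the vacuolar proton pump, were likewise higher on every nursery array than on every maternal array. TRMT11 (0.57, adjusted p = 0.0203), a transfer RNA methyltransferase subunit, and ZC3H13 (0.71, adjusted p = 0.0203), a subunit of the complex that writes N6-methyladenosine on messenger RNA, were higher on 7 of the 8 nursery arrays than on any maternal array. The maternal mean of TRMT11, 5.94, lay below the filter cut of 6.04 on the mean level, so TRMT11 was tested through its nursery arrays.

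The transporters SLC35G1 (1.20, adjusted p = 0.0203) and SLC35B3 (0.47, adjusted p = 0.0203), the latter a carrier of sulfate donor into the Golgi, and RAB11FIP2 (0.79, adjusted p = 0.0203), an adaptor of recycling endosomes, were higher. So were TMEM68 (0.66, adjusted p = 0.0203), the spindle checkpoint protein MAD2L1 (0.59, adjusted p = 0.0203), the ubiquitin ligase UBR3 (0.54, adjusted p = 0.0203) and the zinc finger factor ZNF397 (0.80, adjusted p = 0.0203). UBR3 was called at all 3 of its tested probe sets and MAD2L1, TMEM68, RAB11FIP2 and EXOSC3 at both of theirs, while ZNF397 differed by only 0.11 at its other probe set.

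Among the genes called lower with the smallest p, the collagen chain COL11A1 measured 7.77, 6.66, 7.64, 7.74 and 7.49 on the 5 maternal arrays and between 5.70 and 6.38, with a median of 6.15, on the 8 nursery arrays. It did not overlap between the groups (-1.35 ± 0.19, adjusted p = 0.015), and maternal array 2 was the lowest of its group. HES6, a helix-loop-helix regulator, measured 7.53, 7.61, 7.54, 7.55 and 7.65 on the 5 maternal arrays and between 6.83 and 7.28, with a median of 7.04, on the 8 nursery arrays, a narrow maternal range with all nursery arrays below it (-0.55 ± 0.08, adjusted p = 0.015). SERTAD1 (-0.55, adjusted p = 0.0203), a coregulator of cell cycle transcription, TXNL4B (-0.53, adjusted p = 0.0203), a thioredoxin-like splicing protein, and the orphan receptor GPR153 (-0.75, adjusted p = 0.0203) showed no overlap either. ZNF296 (-0.59, adjusted p = 0.0211), the kinase RPS6KA1 (-0.46, adjusted p = 0.0226) of the ERK pathway, SLC15A3 (-0.71, adjusted p = 0.0229), a peptide and histidine transporter of endolysosomes, and the lymphocyte repressor ZBTB32 (-0.93, adjusted p = 0.0229) overlapped on 1 or 2 nursery arrays.

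To look beyond single genes, 101 families were formed from gene symbols, with 3710 of the 9657 genes in at least 1. The lists and members were chosen with earlier results of these data known, so their shares describe the data and test nothing. Of the 771 called genes, 316 fell in a family. The families of the gene expression machinery held 1149 genes, of which 116 (10.1%) were called higher and 9 (0.783%) lower. In immune families the order was the opposite, with 20 of 669 genes (2.99%) higher and 43 (6.43%) lower. Protein quality and membrane traffic had 46 higher (6.30%) and 10 lower (1.37%) of 730. Metabolism had 28 (5.98%) and 1 (0.214%) of 468, and signalling 33 (4.03%) and 18 (2.20%) of 819.

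The medians told the same order with smaller differences. The median gene of the expression machinery differed by 0.13 and that of the immune families by -0.12. Without maternal arrays 2 and 5 these were 0.05 and -0.07, and after quantile normalization 0.07 and -0.16. The median was above 0 in 22 of 25 expression families and below 0 in 23 of 26 immune families. The families described next were taken for their shares of called members, 12 with the highest share higher and 12 with the highest share lower, so those shares describe the choice and are set beside the 6.30% and 1.69% of all genes.

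These counts depend on the scaling. After quantile normalization 249 genes (2.58%) were called higher and 238 (2.46%) lower in all, 50 and 12 of the expression machinery and 5 and 44 of the immune families. Fewer genes were then called higher in each of the 12 families with the highest share higher: 4 for nuclear transport, 5 for RNA polymerase II, 1 for RNA polymerases I and III, 3 for splicing regulators, 1 for RNA helicases, 1 for polycomb and DNA methylation, 1 for cohesin and condensin and 0 in the microRNA pathway. The mitochondrial family then had 3 higher, the citric acid cycle 1, JAK and STAT signalling 3 and the T helper factors 2, and the T helper factors had 3 called lower. Of the C2H2 zinc finger factors 14 were then called higher, and of the proteasome 1. In the 12 families with the highest share lower, the number called lower was 7 for NF-kB, 4 for cytotoxic granules, 4 for Fc receptors and complement, 3 for B cell genes, 3 for glucocorticoid receptor targets and 1 or 2 in the others.

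With the 3' to 5' ratio as a covariate, 570 genes (5.90%) were called higher and 125 (1.29%) lower. These were largely other calls, as 692 of the 2107 called probe sets were still called in that fit. Several of the lower families then lost their calls: 0 cytotoxic granule, 0 plasma cell, 0 chemokine receptor and 0 G protein genes were called lower, and 1 NF-kB gene was lower and 2 were higher. Splicing regulators had 1 called higher, and the T helper factors 7 higher and 0 lower.

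**Figure D2:**
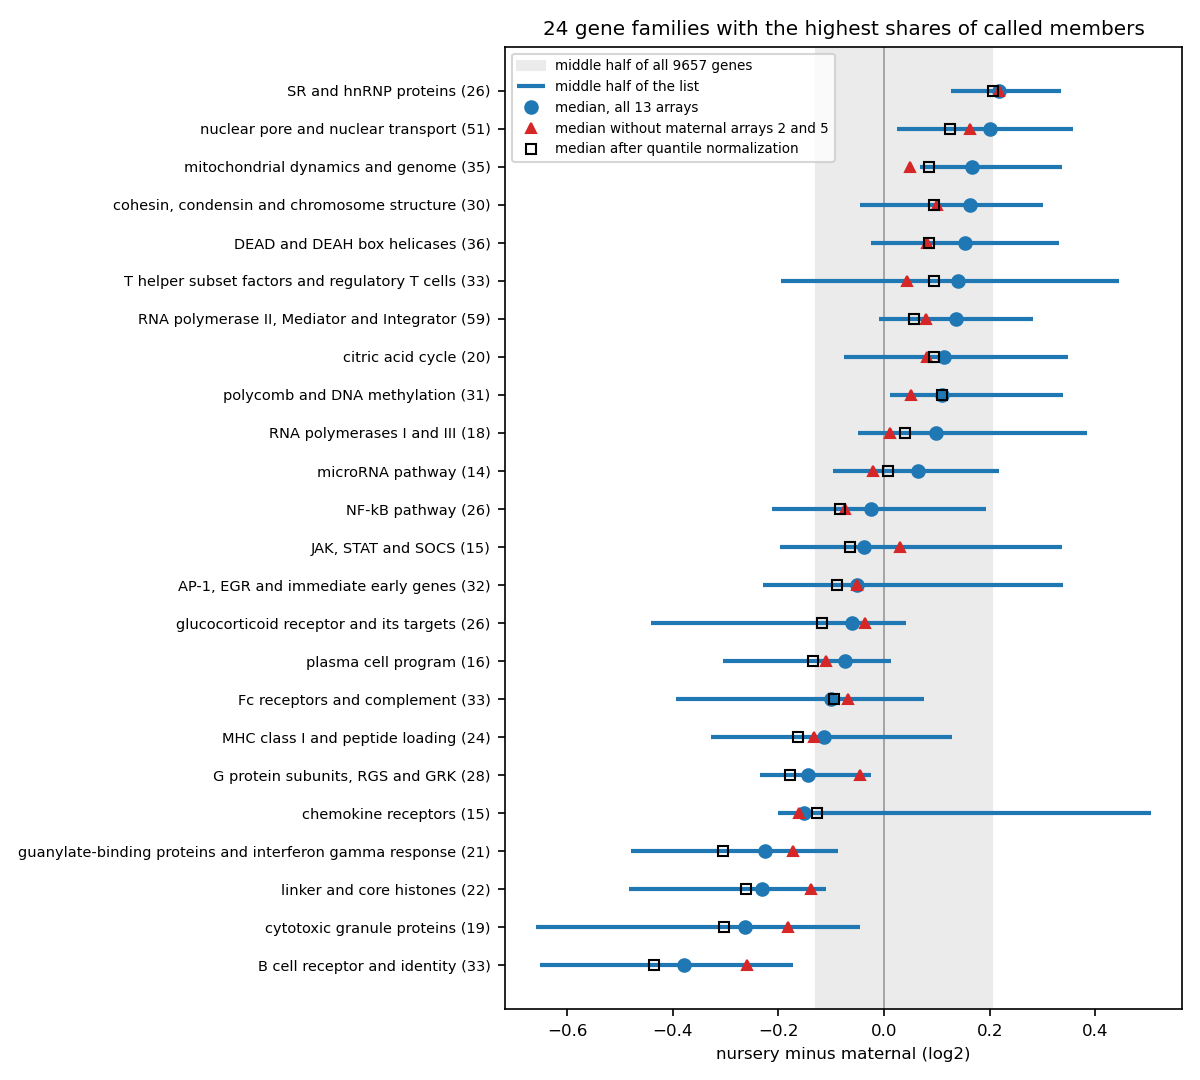
The median log2 difference, nursery minus maternal, of the 24 families taken for their shares of called genes (circles; number of measured genes in brackets), with the quartiles of the members (bars) and of all 9657 genes (grey band). Triangles give the median without maternal arrays 2 and 5 and squares that after quantile normalization; the median of the mitochondrial family, for example, went from 0.17 to 0.05 without those arrays.

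Several genes of nuclear transport were higher. The nuclear pore is a channel of nucleoporins through which importins and exportins carry proteins and RNA, and 9 of 51 measured members (17.6%) were called higher and 0 lower. XPOT, the exporter of transfer RNA, measured 9.22, 9.05, 8.83, 8.54 and 8.71 on the 5 maternal arrays and between 9.27 and 9.65, with a median of 9.49, on the 8 nursery arrays. No array overlapped (0.59 ± 0.11, adjusted p = 0.0229). The nucleoporins NUP54 (0.40, adjusted p = 0.0231) and NUP160 (0.45, adjusted p = 0.0369) did not overlap either, although NUP160 differed by 0.02 at another of its 3 probe sets. The importins RANBP6 (0.62, adjusted p = 0.0239) and IPO7 (0.46, adjusted p = 0.0274) were also higher, IPO7 at 3 of its 4 probe sets. With quartiles of 0.02 and 0.36, the family median was 0.20, and it became 0.16 without maternal arrays 2 and 5.

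The machinery of RNA polymerase II was higher in 9 of 59 genes (15.3%) and lower in 0. TAF4, a subunit of the promoter-binding complex TFIID, measured 8.48, 7.80, 8.07, 7.79 and 7.50 on the 5 maternal arrays and between 8.47 and 8.83, with a median of 8.63, on the 8 nursery arrays. Maternal array 1 reached the lowest nursery arrays and the other 4 maternal arrays lay below all of them (0.69 ± 0.14, adjusted p = 0.0231). TAF2 (0.62, adjusted p = 0.0249), also of TFIID, GTF2E1 (0.58, adjusted p = 0.0255) of TFIIE, MED6 (0.62, adjusted p = 0.0267) of the Mediator coactivator and TAF1A (0.67, adjusted p = 0.0327), whose protein serves RNA polymerase I, moved the same way. TAF2 differed by 0.05 at its other probe set. Leaving out maternal arrays 2 and 5 took the family median from 0.14 (quartiles -0.01 and 0.28) to 0.08.

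RNA polymerases I and III make ribosomal and transfer RNA, and 4 of 18 genes (22.2%) of their machinery were higher. GTF3C3, a subunit of the promoter factor TFIIIC, measured 8.01, 7.57, 7.45, 7.35 and 7.38 on the 5 maternal arrays and between 7.89 and 8.42, with a median of 8.05, on the 8 nursery arrays (0.54 ± 0.12, adjusted p = 0.0265). Only maternal array 1 overlapped the nursery range. GTF3C2 (0.43, adjusted p = 0.0332), POLR3B (0.45, adjusted p = 0.048) and POLR1C, shared by both polymerases, were the others, and POLR1C differed by 0.91 (adjusted p = 0.0347) with peer 1.40 and surrogate-peer 0.43. Over all measured members the median was 0.10, the quartiles were -0.05 and 0.38, and the median without maternal arrays 2 and 5 was 0.01.

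Splicing regulators showed the highest family median among the 12 families with most genes called higher. SR proteins and hnRNPs bind pre-messenger RNA and set which exons are kept, and 5 of 26 (19.2%) were called higher, with 23 above 0. SRSF10 measured 8.88, 8.91, 8.82, 8.44 and 8.75 on the 5 maternal arrays and between 9.11 and 9.45, with a median of 9.17, on the 8 nursery arrays. All nursery arrays exceeded all maternal arrays (0.44 ± 0.09, adjusted p = 0.0231), at both of its probe sets. SRSF5 (0.62, adjusted p = 0.0246) was called at all 3 of its probe sets, and HNRNPM (0.38, adjusted p = 0.0262), HNRNPH3 (0.47, adjusted p = 0.0384) and SRSF6 (0.50, adjusted p = 0.044) at 1 each. The median member differed by 0.22, with quartiles of 0.13 and 0.34, and by 0.22 without maternal arrays 2 and 5, and by 0.21 after quantile normalization, so that it hardly moved under either. These genes are bright, with a median level of 11.03 against 8.30 for all genes.

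RNA helicases of the DEAD and DEAH box families unwind RNA in splicing, ribosome assembly and translation, and 5 of 36 were higher (13.9%) and 1 lower. DHX29, a translation initiation helicase, measured 8.45, 8.44, 8.51, 8.37 and 8.30 on the 5 maternal arrays and between 8.64 and 8.87, with a median of 8.76, on the 8 nursery arrays, without overlap (0.34 ± 0.06, adjusted p = 0.0211). DDX42 (0.37, adjusted p = 0.0304) and DHX35 (0.42, adjusted p = 0.0434) were higher. The splicing helicase DHX8 was lower (-0.49 ± 0.11, adjusted p = 0.0284) at 1 of 3 probe sets, and 7 of 8 nursery arrays lay below every maternal array. With quartiles of -0.03 and 0.33, the family median was 0.15, and it became 0.08 without maternal arrays 2 and 5.

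Genes of RNA modification were called higher in 8 of 61 (13.1%) and lower in 0. Beside TRMT11 they included TRMT10C (0.44, adjusted p = 0.0212), a subunit of mitochondrial RNase P, METTL18 (0.45, adjusted p = 0.028), which methylates a histidine of a ribosomal protein, and the pseudouridine synthase homologue PUS7L (0.58, adjusted p = 0.0437). TRMT10C was higher on all nursery arrays than on all maternal arrays. The synthetases that charge mitochondrial transfer RNA with methionine and arginine, MARS2 (1.01, adjusted p = 0.0238) and RARS2 (0.49, adjusted p = 0.0287), were the only called members among 28 synthetase genes, a share of 7.14%, close to that of all genes.

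Zinc finger factors of the C2H2 class made the largest family. They bind DNA through repeated finger domains, many with a KRAB domain that recruits silencing complexes, and 26 of 215 (12.1%) were higher and 1 lower. ZNF12 (0.45, adjusted p = 0.0215) was called at 4 of its 5 probe sets, and ZNF189 (0.55, adjusted p = 0.0215), ZNF770 (0.80, adjusted p = 0.0218) and ZNF831 (0.64, adjusted p = 0.0232) at their single tested ones. ZNF12, ZNF189 and ZNF770 were higher on every nursery array than on every maternal array. The median of the family was 0.17, 0.07 without maternal arrays 2 and 5 and 0.13 after quantile normalization. Its members are dimmer than the average gene, with a median level of 7.60. In the bin of genes with levels from 6.90 to 7.82 the median difference was -0.04, and 5.39% were called higher. The part of brightness in this family was not tested. By symbol stem alone, the 194 genes named ZNF had 24 higher and 1 lower.

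Polycomb and DNA methylation genes were higher in 5 of 31 (16.1%). BCOR, a corepressor that joins a polycomb complex, measured 9.002, 8.88, 8.74, 8.21 and 8.60 on the 5 maternal arrays and between 9.02 and 9.39, with a median of 9.21, on the 8 nursery arrays. The lowest nursery array was just above the highest maternal array (0.52 ± 0.12, adjusted p = 0.0287), and 3 of its 4 probe sets were called. TET3 (0.52, adjusted p = 0.0317), which oxidises methylcytosine, ZBTB33 (0.61, adjusted p = 0.037) and MBD4 (0.45, adjusted p = 0.0454), which bind methylated DNA, and the polycomb subunit PCGF6 (0.46, adjusted p = 0.0391) were also higher. Leaving out maternal arrays 2 and 5 took the family median from 0.11 (quartiles 0.01 and 0.34) to 0.05. Histone-modifying enzymes had calls in both directions. Histone lysine methylation had 2 higher and 2 lower of 58 (3.45% each), the demethylase KDM4B (-0.54, adjusted p = 0.028) among the lower. The acetylation enzymes and readers had 4 (7.41%) and 1 (1.85%) of 54, with the reader BRD2 (-0.35, adjusted p = 0.0367) lower.

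Cohesin, condensin and the proteins that anchor chromatin were higher in 4 of 30 (13.3%). TMPO, which ties chromatin to the nuclear lamina, measured 9.29, 8.73, 8.95, 8.95 and 8.69 on the 5 maternal arrays and between 9.29 and 9.91, with a median of 9.60, on the 8 nursery arrays (0.69 ± 0.13, adjusted p = 0.021). Maternal array 1 equalled the lowest nursery array at 2 decimals and the other maternal arrays lay below. WAPL (0.41, adjusted p = 0.0317), the factor that releases cohesin, SMC4 (0.58, adjusted p = 0.038) of condensin and NSMCE3 (0.54, adjusted p = 0.0492) followed, with WAPL and SMC4 each slightly below 0 at another probe set. Over all measured members the median was 0.16, the quartiles were -0.04 and 0.30, and the median without maternal arrays 2 and 5 was 0.10.

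In the microRNA pathway 2 of 14 genes (14.3%) were higher. TUT4, which adds uridines to precursor microRNA, measured 9.40, 8.54, 8.95, 8.50 and 8.61 on the 5 maternal arrays and between 9.01 and 9.60, with a median of 9.38, on the 8 nursery arrays (0.57 ± 0.15, adjusted p = 0.0404), with maternal array 1 inside the nursery range. DICER1 (0.82, adjusted p = 0.0421), the nuclease that cuts the precursors, was the other, and its difference was 0.39 without maternal arrays 2 and 5. The family median changed from 0.06 to -0.02 without those arrays.

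**Figure D3:**
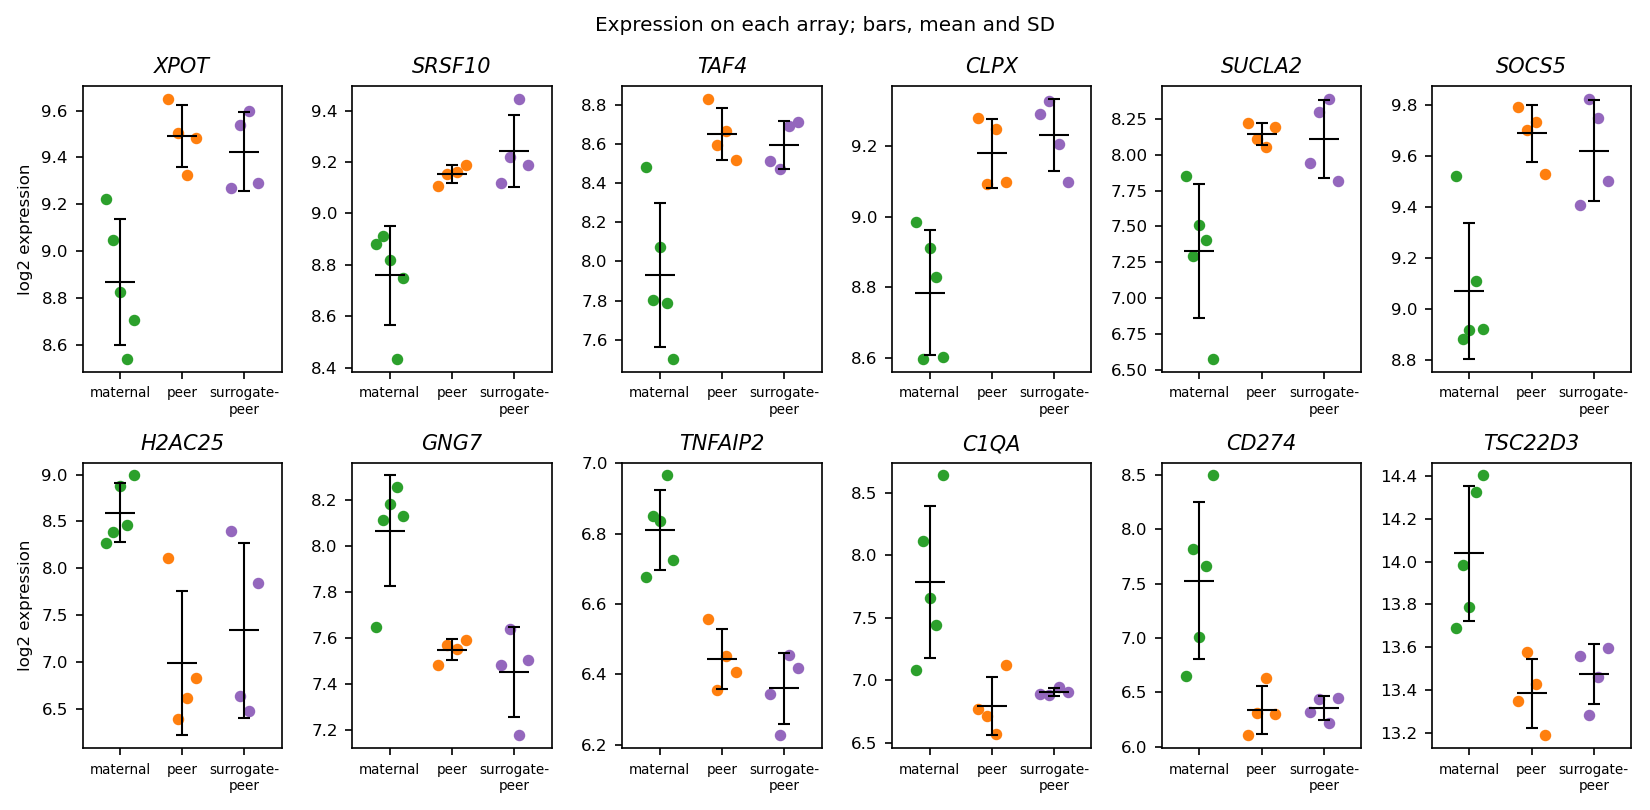
Log2 expression of 12 genes on each array (points), by rearing group, with the mean and SD of each group (bars). In the top row, XPOT, SRSF10 and CLPX are higher on all 8 nursery arrays than on all 5 maternal arrays; in the bottom row GNG7, TNFAIP2, CD274 and TSC22D3 are lower on all 8. Each panel has its own axis, which does not start at 0.

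Of 35 genes for mitochondrial shape, RNA and genome, 5 (14.3%) were higher and 0 lower. CLPX, the unfoldase of a matrix protease, measured 8.98, 8.60, 8.91, 8.83 and 8.60 on the 5 maternal arrays and between 9.09 and 9.33, with a median of 9.23, on the 8 nursery arrays, without overlap (0.42 ± 0.08, adjusted p = 0.0231). TEFM (0.53, adjusted p = 0.0231) and MTERF1 (0.44, adjusted p = 0.0358), an elongation and a termination factor of mitochondrial transcription, and the RNA-binding proteins FASTKD3 (0.88, adjusted p = 0.0336) and FASTKD2 (0.50, adjusted p = 0.037) made up the rest. The median member differed by 0.17, with quartiles of 0.07 and 0.34, and by 0.05 without maternal arrays 2 and 5. Of mitochondrial ribosomal proteins 3 of 63 (4.76%) were called, MRPS18C (0.36, adjusted p = 0.0211), MRPL16 (0.42, adjusted p = 0.0289) and MRPL32 (0.32, adjusted p = 0.049). The respiratory chain had no call: 0 of 32 genes of complex I and 0 of 44 of the other complexes passed the limma threshold, with medians of 0.09 and 0.06.

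The citric acid cycle oxidises acetyl groups in mitochondria. Of 20 genes of the cycle and of related enzymes, 3 (15%) were higher. SUCLA2, a subunit of succinyl-CoA synthetase, measured 7.85, 7.29, 7.51, 7.41 and 6.58 on the 5 maternal arrays and between 7.82 and 8.39, with a median of 8.15, on the 8 nursery arrays (0.80 ± 0.18, adjusted p = 0.0264). Maternal array 5 was the lowest by a wide margin and the difference without maternal arrays 2 and 5 was 0.54. ACO1 (0.46, adjusted p = 0.0392), the cytosolic aconitase that also regulates iron, and the malic enzyme ME2 (0.75, adjusted p = 0.0407) were the others. With quartiles of -0.08 and 0.35, the family median was 0.11, and it became 0.08 without maternal arrays 2 and 5. One-carbon and nucleotide synthesis had 4 of 31 higher (12.9%). Among them were both subunits of the enzyme that makes S-adenosylmethionine, MAT2A (0.54, adjusted p = 0.0252) and MAT2B (0.34, adjusted p = 0.0408). The purine salvage enzyme HPRT1 (0.48, adjusted p = 0.0296) was another.

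Signalling from cytokine receptors through JAK and STAT proteins is curbed by SOCS proteins, and in this family 4 of 15 (26.7%) were higher. All were regulators and none was a JAK or STAT. SOCS5 measured 9.52, 8.88, 8.92, 9.11 and 8.92 on the 5 maternal arrays and between 9.41 and 9.82, with a median of 9.72, on the 8 nursery arrays, with maternal array 1 inside the nursery range (0.58 ± 0.12, adjusted p = 0.0231). CISH (0.45, adjusted p = 0.0319) is another member of the SOCS family, PTPN11 (0.53, adjusted p = 0.0252) is the phosphatase SHP2 and PIAS2 (0.38, adjusted p = 0.0371) is a SUMO ligase. CISH differed by 0.06 at its other probe set. The family median was -0.04, so the called genes stood apart from the rest of the list, and it was 0.03 without maternal arrays 2 and 5.

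Growth and nutrient signalling had 3 of 48 genes (6.25%) higher and 2 (4.17%) lower, against 6.30% and 1.69% of all genes. RPS6KB1 (0.69, adjusted p = 0.0212), the S6 kinase, RHEB (0.38, adjusted p = 0.044) and RRAGB (0.44, adjusted p = 0.0391), GTPases that activate mTORC1, were higher. The phosphatase INPP5D (-0.23, adjusted p = 0.0355) was lower. The amino acid carriers SLC38A1 (0.81, adjusted p = 0.0229) and SLC38A9 (0.39, adjusted p = 0.0316), the latter a lysosomal arginine sensor of mTORC1, were among 5 of 70 carriers called higher. That share, 7.14%, was close to that of all genes. MAP2K1 (0.53, adjusted p = 0.0245), a kinase that activates ERK, was higher and did not overlap. The Notch coactivators MAML3 (0.38, adjusted p = 0.0245) and MAML2 (0.52, adjusted p = 0.0246) and the nuclear receptor corepressor NRIP1 (0.88, adjusted p = 0.0232) were higher, and the corepressor TLE1 (-0.86, adjusted p = 0.0259) was lower. In the proteasome, 4 of 34 subunits (11.8%) were higher, with PSMC6 (0.54, adjusted p = 0.0238) and PSMA3 (0.34, adjusted p = 0.0297) free of overlap.

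Factors of T helper and regulatory T cells were higher in 5 of 33 genes (15.2%) and lower in 1. ELF1, a transcription factor of lymphocytes, measured 11.33, 10.88, 10.90, 10.91 and 10.89 on the 5 maternal arrays and between 11.30 and 11.64, with a median of 11.49, on the 8 nursery arrays (0.49 ± 0.10, adjusted p = 0.0226). Maternal array 1 stood apart from its group and within the nursery range. CD96, a receptor of T and natural killer cells, had no overlap (0.90 ± 0.19, adjusted p = 0.0252) but differed by -0.14 at its other probe set. CBFB (0.44, adjusted p = 0.0352) and RUNX1 (0.47, adjusted p = 0.0377), partners in 1 transcription factor, and MYC (0.83, adjusted p = 0.0355) were higher and TOX2 (-0.54, adjusted p = 0.0249) was lower. RUNX1 went as low as -0.41 at another of its 4 probe sets. Leaving out maternal arrays 2 and 5 took the family median from 0.14 (quartiles -0.20 and 0.44) to 0.04.

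Other T cell genes were called in both directions. Of 33 genes of naive and memory T cells 4 (12.1%) were higher and 1 (3.03%) lower, with 19 below 0 and a median of -0.05. Of 37 genes of the T cell receptor and its first signals 1 was higher and 1 lower (2.70% each), with a median of 0.12. BCL11B (0.70, adjusted p = 0.0313) and SATB1 (0.66, adjusted p = 0.0346), T cell factors, and the calcium-dependent kinase CAMK4 (0.71, adjusted p = 0.0448) were higher, SATB1 at 2 of 4 probe sets and CAMK4 at both. The measured naive T cell markers (2 of 3, without LEF1) averaged -1.07 to 0.17 on the maternal, 0.21 to 0.41 on the peer and 0.00 to 0.44 on the surrogate-peer arrays. Only 2 of 7 general T cell markers, CD5 and CD6, had a probe set with a single gene name, and they averaged -0.46 to 0.24 on the maternal, -0.07 to 0.13 on the peer and -0.06 to 0.28 on the surrogate-peer arrays. The part of T cell numbers in these genes was not tested.

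Among families with most members called lower, histone genes had few calls but lay mostly below 0. Linker and core histones package DNA, and 2 of 22 (9.09%) were called lower and 0 higher, while 19 of them were below 0. H2AC25, a histone H2A gene, measured 8.27, 8.38, 8.88, 8.46 and 8.99 on the 5 maternal arrays and between 6.39 and 8.40, with a median of 6.73, on the 8 nursery arrays. Peer array 1 and surrogate-peer arrays 1 and 4 were the nursery arrays nearest to the maternal range, and 1 of them overlapped it (-1.43 ± 0.35, adjusted p = 0.0348), at both probe sets. H2AC17 (-0.28, adjusted p = 0.0415) was the other, with all nursery arrays below all maternal arrays at 3 decimals. Over all measured members the median was -0.23, the quartiles were -0.48 and -0.11, and the median without maternal arrays 2 and 5 was -0.14. Poly(A)-tailed and untailed histone transcripts cannot be told apart on these arrays, and histones of 1 type are near-identical copies, so their probe sets may share signal.

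The relays of G protein-coupled receptors were called lower in 3 of 28 genes (10.7%), and 23 lay below 0. GNG7, a gamma subunit, measured 7.65, 8.11, 8.18, 8.26 and 8.13 on the 5 maternal arrays and between 7.18 and 7.64, with a median of 7.53, on the 8 nursery arrays, without overlap although maternal array 1 was close to the nursery range (-0.56 ± 0.11, adjusted p = 0.0211). GNGT2 (-0.28, adjusted p = 0.0495), another gamma subunit, and RGS9 (-0.66, adjusted p = 0.0236), which speeds the shut-off of G proteins, were the others. The median member differed by -0.14, with quartiles of -0.24 and -0.03, and by -0.05 without maternal arrays 2 and 5. In the family of nerve and stress transmitter genes, the receptor of corticotropin-releasing hormone, CRHR1 (-0.45, adjusted p = 0.0404), was the only called gene of 30, and at 1 of its 2 probe sets.

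All called genes of NF-kB signalling were lower. The pathway turns receptor signals into inflammatory transcription and is held in check by IkB proteins, and 6 of 26 genes (23.1%) were lower and 0 higher. TNFAIP2, induced by the pathway, measured 6.68, 6.85, 6.84, 6.96 and 6.72 on the 5 maternal arrays and between 6.23 and 6.56, with a median of 6.41, on the 8 nursery arrays. The groups did not overlap (-0.41 ± 0.07, adjusted p = 0.0203), but its other probe set differed by 0.27. The IkB proteins NFKBIE (-0.31, adjusted p = 0.0215) and NFKBID (-0.41, adjusted p = 0.0299), the kinase MAP3K14 (-0.36, adjusted p = 0.0232) that starts the alternative pathway and RBCK1 (-0.22, adjusted p = 0.0365), a subunit of the linear ubiquitin ligase, were each lower on every nursery array than on every maternal array. RBCK1 was near 0 at its other probe set (0.04). 5 of the 26 genes showed such a separation, against 1.06% of all genes. The family median was -0.02, so the other members did not follow, and it was -0.07 without maternal arrays 2 and 5.

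Fc receptors and complement were lower in 5 of 33 (15.2%) and higher in 1. The 3 chains of C1q, which starts the classical complement pathway, were all among the lower: C1QA (-0.94, adjusted p = 0.028), C1QB (-0.82, adjusted p = 0.0441) and C1QC (-0.41, adjusted p = 0.0379). C1QA measured 7.08, 8.11, 7.66, 7.44 and 8.64 on the 5 maternal arrays and between 6.57 and 7.12, with a median of 6.89, on the 8 nursery arrays, and C1QB 6.70, 7.48, 7.02, 6.76 and 8.32 on the 5 maternal arrays and between 6.17 and 6.63, with a median of 6.48, on the 8 nursery arrays. Maternal arrays 2 and 5 were the highest for both, and without them the differences were -0.54 for C1QA, -0.39 for C1QB and -0.41 for C1QC. FCRLA, a B cell protein related to Fc receptors, measured 9.93, 10.33, 9.56, 9.87 and 9.96 on the 5 maternal arrays and between 8.25 and 9.45, with a median of 9.11, on the 8 nursery arrays, without overlap (-0.92 ± 0.17, adjusted p = 0.021), and -0.15 was its difference at another probe set. FCGR3 (-1.20, adjusted p = 0.0318), the low-affinity receptor of natural killer cells and a monocyte subset, was lower and FCER1A (1.91, adjusted p = 0.0315), the IgE receptor chain of basophils and dendritic cells, was the member that was higher.

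Loading of MHC class I, which shows peptides to CD8 T cells, was lower in 3 of 24 genes (12.5%), and all 3 belong to the loading step. TAPBPL, a peptide editor, measured 8.94, 9.49, 8.93, 8.89 and 9.36 on the 5 maternal arrays and between 8.25 and 8.84, with a median of 8.54, on the 8 nursery arrays, without overlap (-0.56 ± 0.13, adjusted p = 0.0282). TAPBP (-0.28, adjusted p = 0.0427), tapasin, did not overlap either, and TAP2 (-0.52, adjusted p = 0.0489), a subunit of the peptide transporter, differed by -0.28 without maternal arrays 2 and 5. TAPBP and TAP2 were called at 1 of 3 and 1 of 2 probe sets. With quartiles of -0.33 and 0.13, the family median was -0.11, and it became -0.13 without maternal arrays 2 and 5. Class I genes of macaques are many and near-identical, so probe sets of the heavy chains may share signal. Of 19 class II genes 0 were called by limma, with a median of -0.15.

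Genes of the interferon gamma response were lower in 3 of 21 (14.3%). CD274, the checkpoint ligand PD-L1, measured 6.65, 7.82, 7.01, 7.66 and 8.50 on the 5 maternal arrays and between 6.11 and 6.63, with a median of 6.32, on the 8 nursery arrays. Maternal array 1 was just above the nursery range and maternal array 5 was the highest (-1.18 ± 0.25, adjusted p = 0.0239). GBP1 (-1.29, adjusted p = 0.049) was lower at 1 of 4 probe sets and overlapped on 6 nursery arrays, and its difference was -0.75 without maternal arrays 2 and 5. Leaving out maternal arrays 2 and 5 took the family median from -0.22 (quartiles -0.48 and -0.09) to -0.17. The type I response had 2 of 47 called lower (4.26%), UBE2L6 (-0.41, adjusted p = 0.0317) and ISG20 (-0.39, adjusted p = 0.0274). Its median of -0.38 became -0.11 without those arrays. With the 3' to 5' ratio as a covariate, 23 of the same genes were called lower and 1 higher, with a median of -0.75, and the interferon gamma family had a median of -0.61.

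Chemokine receptors, which steer leukocytes, were called lower in 2 of 15 (13.3%). CX3CR1, the fractalkine receptor, measured 6.23, 6.11, 6.26, 6.19 and 6.46 on the 5 maternal arrays and between 5.83 and 6.01, with a median of 5.99, on the 8 nursery arrays, low throughout and without overlap (-0.30 ± 0.07, adjusted p = 0.0289). All 8 nursery values lay below the filter cut of 6.04 on the mean level, so CX3CR1 was tested only through its maternal arrays. CCRL2 (-1.43, adjusted p = 0.0475), a non-signalling chemerin binder, was higher on maternal arrays 2, 4 and 5 than on any nursery array, and its difference was -0.85 without maternal arrays 2 and 5. Over all measured members the median was -0.15, the quartiles were -0.20 and 0.51, and the median without maternal arrays 2 and 5 was -0.16. Of 65 adhesion genes 4 (6.15%) were higher and 4 (6.15%) lower, against 6.30% and 1.69% of all genes. The higher ones included the integrins ITGA1 (0.60, adjusted p = 0.0389) and ITGA6 (0.57, adjusted p = 0.0458) and PECAM1 (0.35, adjusted p = 0.0444). The lower ones were SIGLEC10 (-0.38, adjusted p = 0.0317), SEMA4C (-0.31, adjusted p = 0.0332), ITGAD (-0.65, adjusted p = 0.0397) and SELPLG (-0.69, adjusted p = 0.045).

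Cytotoxic granule proteins kill target cells, and 4 of 19 (21.1%) were lower. GZMB, granzyme B, measured 13.01, 12.37, 12.68, 12.82 and 12.22 on the 5 maternal arrays and between 10.67 and 12.10, with a median of 11.19, on the 8 nursery arrays and did not overlap (-1.37 ± 0.24, adjusted p = 0.0203). CST7 (-0.92, adjusted p = 0.0231), a protease inhibitor of these granules, GZMH (-1.60, adjusted p = 0.026) and NKG7 (-1.01, adjusted p = 0.0422) were the others. The median member differed by -0.26, with quartiles of -0.66 and -0.05, and by -0.18 without maternal arrays 2 and 5. The 4 measured of 6 natural killer cell markers (without PRF1 and NCR1) averaged -0.90 to 1.28 on the maternal, -0.57 to 0.30 on the peer and -1.41 to 0.75 on the surrogate-peer arrays. The group medians of this average were 0.78, -0.41 and -0.39. All 4 markers were below 0 in the difference, with a median of -0.84, which was -0.30 with the 3' to 5' ratio as a covariate. The 1 marker called lower was NKG7, which is also among the called granule genes, so the 2 sets are not independent. The part of natural killer cell numbers in these genes was not tested.

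B cell genes had the lowest family median among the 24. Of 33 genes 4 (12.1%) were called lower and 29 lay below 0. TNFRSF13B, the receptor TACI, measured 8.70, 9.06, 8.99, 9.35 and 8.82 on the 5 maternal arrays and between 7.89 and 8.78, with a median of 8.21, on the 8 nursery arrays, with 1 nursery array inside the maternal range (-0.73 ± 0.13, adjusted p = 0.0203), at 1 of 3 probe sets. The kinase SYK (-0.75, adjusted p = 0.0342) and the Toll-like family member CD180 (-0.40, adjusted p = 0.0414) were also lower. The median was -0.38, with -0.14 for the peer and -0.61 for the surrogate-peer group, and -0.26 without maternal arrays 2 and 5. The 4 measured B cell markers averaged -0.04 to 1.03 on the maternal, -0.31 to 0.61 on the peer and -1.02 to -0.17 on the surrogate-peer arrays. The part of B cell numbers was not tested.

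In the plasma cell program 2 of 16 genes (12.5%) were lower. PRDM1, the repressor Blimp-1 of plasma cells and effector T cells, measured 9.84, 9.25, 9.32, 9.96 and 9.90 on the 5 maternal arrays and between 8.34 and 9.60, with a median of 8.96, on the 8 nursery arrays (-0.73 ± 0.19, adjusted p = 0.0401), at both probe sets, with 1 nursery array inside the maternal range. CREB3L2 (-0.32, adjusted p = 0.0434), a factor of secretory cells, was the other. With quartiles of -0.30 and 0.01, the family median was -0.07, and it became -0.11 without maternal arrays 2 and 5.

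Immediate early genes, switched on within minutes of a stimulus, had calls in both directions. Of 32 genes 3 were higher and 3 lower (9.38% each), against 6.30% and 1.69% of all genes. EGR2 measured 5.98, 5.63, 5.27, 5.29 and 5.80 on the 5 maternal arrays and between 5.85 and 9.38, with a median of 8.67, on the 8 nursery arrays, so that 1 nursery array remained at the maternal level (2.59 ± 0.53, adjusted p = 0.0238). All 5 maternal values lay below the filter cut of 6.04 on the mean level, so EGR2 was tested only through its nursery arrays. MYC, given above, and ATF1 (0.37, adjusted p = 0.038) were higher, ATF1 at 1 of 5 probe sets. IER5 (-0.61, adjusted p = 0.0269), IER5L (-0.80, adjusted p = 0.0315) and ATF3 (-0.40, adjusted p = 0.044) were lower, IER5 and ATF3 without overlap. Leaving out maternal arrays 2 and 5 took the family median from -0.05 (quartiles -0.23 and 0.34) to -0.05.

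Targets of the glucocorticoid receptor, through which cortisol acts on leukocytes, were lower in 4 of 26 (15.4%) and higher in 0. TSC22D3, the glucocorticoid-induced leucine zipper, measured 13.69, 13.98, 13.79, 14.33 and 14.40 on the 5 maternal arrays and between 13.19 and 13.60, with a median of 13.44, on the 8 nursery arrays. The groups did not overlap (-0.61 ± 0.13, adjusted p = 0.0239). TXNIP (-0.50, adjusted p = 0.0252), an inhibitor of thioredoxin that also responds to glucose, did not overlap and was called at 2 of 5 probe sets. The metallothionein MT2A (-0.36, adjusted p = 0.0397) and the adaptor SLA (-0.45, adjusted p = 0.0434) were the others. Maternal arrays 4 and 5 were the highest for TSC22D3 and TXNIP, and maternal array 2 for MT2A. Over all measured members the median was -0.06, the quartiles were -0.44 and 0.04, and the median without maternal arrays 2 and 5 was -0.04. Metallothioneins are near-identical copies whose probe sets may share signal.

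**Figure D4:**
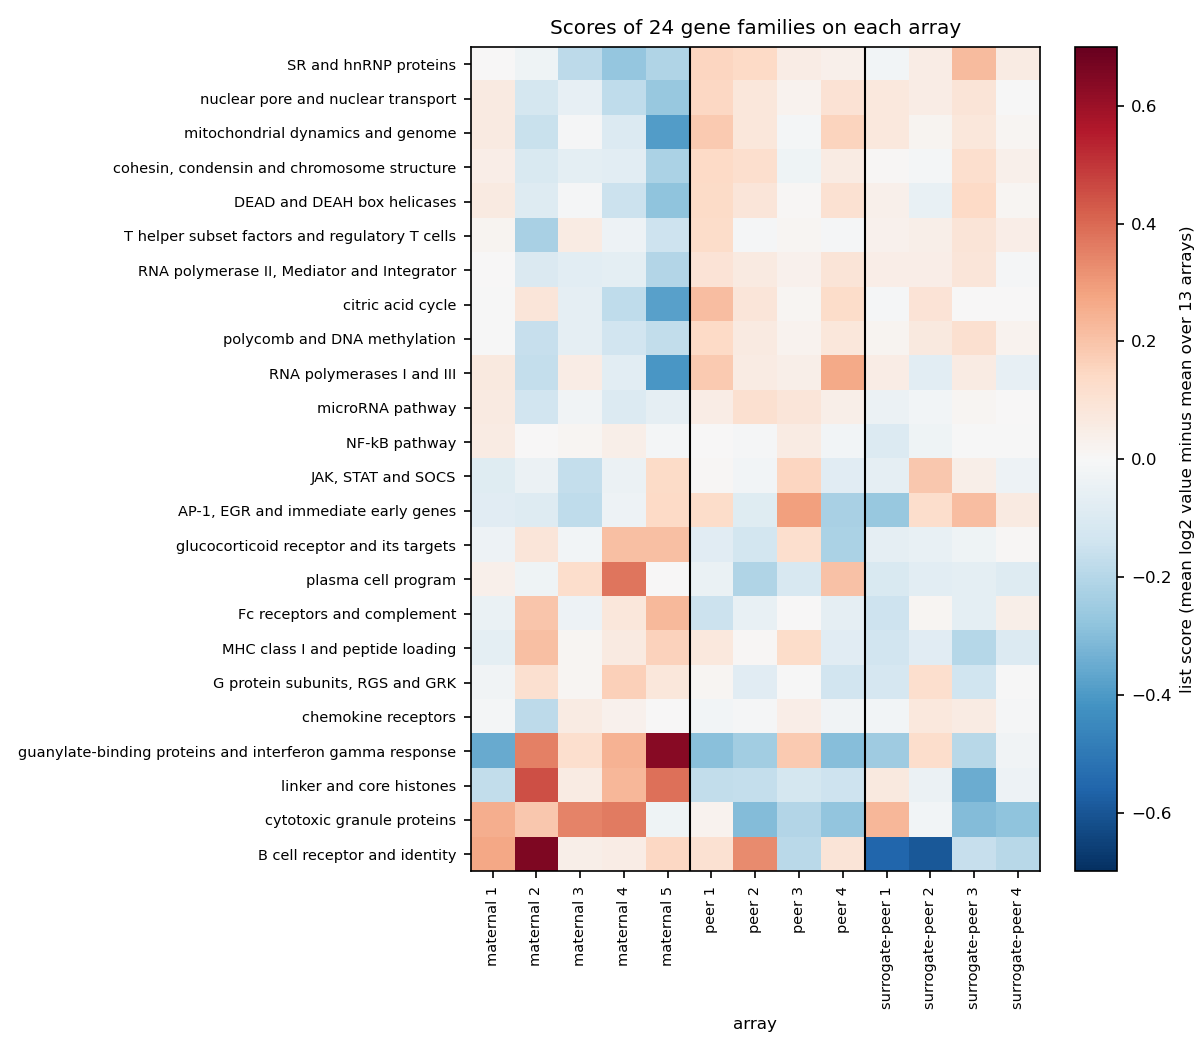
The score of the 24 families on each array, averaged over the members after each member was centred on its own 13-array mean, in log2 units (red above, blue below 0), ordered by median difference; black lines separate the maternal, peer and surrogate-peer arrays. Maternal array 5 is lowest for several expression families and highest for the interferon gamma family. Maternal array 1 is near 0 and within the nursery range in most expression families, for example 0.06 for RNA helicases against -0.05 to 0.14 on the nursery arrays.

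Lysosomal and iron genes gave further values in both directions. Of 43 lysosomal genes 3 (6.98%) were higher and 2 (4.65%) lower, against 6.30% and 1.69% of all genes. The hydrolases TPP1 (0.45, adjusted p = 0.0452), LIPA (0.57, adjusted p = 0.0459) and CTSK (0.53, adjusted p = 0.0472) were higher, and the phosphatase ACP5 (-0.91, adjusted p = 0.0249) and the lysosomal transcription factor TFEB (-0.43, adjusted p = 0.0428) lower. SLC25A37, the iron carrier mitoferrin, was lower at 4 of its 5 probe sets (-1.29 ± 0.33, adjusted p = 0.0391), and by -0.82 without maternal arrays 2 and 5. BAK1 (-0.57, adjusted p = 0.0288), which opens the mitochondrial membrane in apoptosis, was the only called gene of 30 in the cell death family. The lipid kinase DGKG (-0.87, adjusted p = 0.0345) was lower.

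In 11 families limma called 0 genes. These were TRIM and RNF ubiquitin ligases (69 genes, median -0.05), subunits of the phosphatases PP1 and PP2A (39, -0.05), SNARE proteins of vesicle fusion (36, -0.02), fatty acid oxidation (21, -0.02), the circadian clock (12, 0.00), MHC class II and both respiratory chain families. The families of neutrophil granules (19, -0.29), platelets (25, -0.14) and red cells (18, -0.09) completed them. A count of 0 in a family of this size does not show that its genes did not differ.

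Grouping genes by the letters that open their symbols gave 102 stems of at least 10 genes. The highest shares called higher were in GTF, the general transcription factors (4 of 13, 30.8%), and NUP, the nucleoporins (4 of 13, 30.8%). TAF (3 of 11, 27.3%), TRMT, the transfer RNA methyltransferases (3 of 13, 23.1%), and DHX (3 of 14, 21.4%) followed, against 6.30% of all genes. After quantile normalization the numbers called higher were 2, 1, 3, 2 and 1 in this order. The highest share called lower was in COL, the collagens (3 of 16, 18.8%, median -0.13), against 1.69% of all genes. These stems were taken for their shares out of 102, so the shares describe that choice. These stems overlap the families above and rest on the same genes.

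Family medians mostly kept their sign when arrays or settings changed. Of 101 medians, 84 kept their sign without maternal arrays 2 and 5, 93 after quantile normalization and 88 with each array centred on its median. The number was 89 with the 3' to 5' ratio as a covariate and 96 with the monocyte markers as one. The peer and surrogate-peer medians, which share the maternal reference, had the same sign in 91. These fits reuse the same lists and mostly the same arrays, so kept signs were largely set in advance and are no separate support. The median over all 3710 genes in families was 0.03. It was -0.003 without maternal arrays 2 and 5 and -0.01 after quantile normalization. Monocyte and macrophage genes moved the most of all families, from a median of -0.25 to 0.05 without maternal arrays 2 and 5.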

How the data were processed

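The authors summarised each probe set to a log2 value with RMA, per the submitters' processing notes. Version and settings of RMA, and whether all arrays were normalized together, are not stated there. The scale was taken from the deposited log2 values. Of 52865 probe sets, 158 controls were left out, and the 26352 with a mean over 13 arrays above the median of those means, 6.04, were tested. A probe set below this cut in 1 rearing group could pass through the others. The platform annotation pairs 24956 of 52707 probe sets with 1 gene symbol, 361 with several and 27390 with none; 15332 tested ones carried 1 symbol, for 9657 genes. A gene is represented by its brightest tested probe set. Arrays have no sequencing depth, and their number sets the precision.

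Limma 3.58.1 in R 4.3.3 (lmFit, eBayes) fitted the 3 groups in 1 model, with two-sided Benjamini-Hochberg adjustment over all tested probe sets and a threshold of 0.05. The fit was checked on simulated data. The members and lists were chosen with earlier results of these data known. Named genes were up to 15 of smallest p per direction and up to 5 called members per direction of a list, without LOC symbols; in the 24 families, the member of smallest p is given on every array. Alternatives were other scalings, filters, weights and covariates, and leaving out arrays. Sequences of promoters were not used here.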

Additional observations from a re-analysis of the deposited data

Results flagged for a closer look

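Each of the 168 named genes and the scores of 24 families was looked at in the 3 rearing groups for an array far from the others of its group. Of 576 such sets 23 had one by Dixon's criterion, and chance flags about 1 in 20 groups. The number flagged was not above that rate.

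On maternal array 1, GNG7 was 7.65 against 8.11 to 8.26, GTF2E1 was 8.54 against 7.92 to 8.08 and ELF1 was 11.33 against 10.88 to 10.91 on the other arrays of the group. On maternal array 2, COL11A1 was 6.66 against 7.49 to 7.77 and the score of the family chemokine receptors was -0.18 against -0.01 to 0.06 on the other arrays of the group. On maternal array 4, NUP160 was 7.76 against 8.21 to 8.30 and MAP3K14 was 8.10 against 7.88 to 7.93 on the other arrays of the group. On maternal array 5, ZNF296 was 6.44 against 6.96 to 7.03 and MRPL16 was 7.86 against 8.26 to 8.39 on the other arrays of the group.

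On peer array 1, GTF3C2 was 9.85 against 9.59 to 9.63, MTERF1 was 8.23 against 7.99 to 8.03, H2AC17 was 6.04 against 6.22 to 6.25 and the score of the family T helper subset factors and regulatory T cells was 0.13 against -0.01 to 0.01 on the other arrays of the group. On peer array 2, MAML2 was 10.50 against 10.38 to 10.40 on the other arrays of the group. On peer array 3, the score of the family guanylate-binding proteins and interferon gamma response was 0.18 against -0.30 to -0.24 on the other arrays of the group. On peer array 4, TXNL4B was 8.20 against 8.09 to 8.11, POLR1C was 8.98 against 9.62 to 9.66, MYC was 11.41 against 11.02 to 11.04 and FCGR3 was 6.57 against 7.31 to 7.43 on the other arrays of the group.

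On surrogate-peer array 1, SERTAD1 was 8.46 against 7.99 to 8.07 on the other arrays of the group. On surrogate-peer array 2, MTERF1 was 8.16 against 7.83 to 7.87 and the score of the family citric acid cycle was 0.10 against -0.01 to 0.00 on the other arrays of the group. On surrogate-peer array 3, PIAS2 was 7.51 against 7.08 to 7.15 on the other arrays of the group.

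Some of these values enter differences given above. COL11A1 on maternal array 2 and ZNF296 on maternal array 5 lie toward the lower nursery values. MRPL16 on maternal array 5 lies away from the higher nursery values. The differences without maternal arrays 2 and 5 were -1.61 for COL11A1, -0.71 for ZNF296 and 0.33 for MRPL16. No named gene differed between surrogate-peer and peer arrays at the limma threshold.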

How the results depend on the processing

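The 2107 called probe sets became 1337 after quantile normalization, 1390 of 11509 with a mean above 8, and 1367 with a weight per rearing group. With the mean of all probe sets of a gene, 970 of 9657 genes were called. Without maternal arrays 2 and 5 the number was 37, and leaving out 1 array at a time it ran from 29 (without maternal array 4) to 4830 (without maternal array 1). The cause was not tested. The number stayed within 1.5 times the main number with centred arrays, no filter, array weights, a robust trended prior, the nursery arrays as 1 group, and the 3' to 5' ratio, monocyte markers or title number as a covariate. A similar number does not mean the same probe sets. With the 3' to 5' ratio 1632 were called, and 692 of the 2107 were still called. Of the 2107, 1450 were still called with centred arrays, 1613 with the title number and 2053 with the monocyte markers. Surrogate-peer against peer had 0 calls in every fit.

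Of the 168 named genes, RUNX1 alone changed sign, to -0.0684 with the mean of its probe sets. Named genes were called on all arrays, so kept signs were largely set by that choice. The number that stayed called was 144 with centred arrays, 117 after quantile normalization, 68 with the 3' to 5' ratio and 4 without maternal arrays 2 and 5. Of 323 called genes with several tested probe sets, 269 had all of 1 sign and 70 had all called in the same direction. No paired analysis was possible because the labels give the rearing groups no shared replicate numbers. A table of promoter sequences was not analysed here.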

Other observations

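Several families outside the 24 are given here, beside the 6.30% of all genes called higher and the 1.69% called lower. Ribosome biogenesis, the nucleolar assembly of ribosomes, had a median difference of 0.23 over 65 genes with 5 called higher (7.69%). The median was 0.09 without maternal arrays 2 and 5. Translation factors had 0.20 over 46 genes with 2 called higher (4.35%), and cytosolic ribosomal proteins 0.11 over 37 with 2 called higher (5.41%). Heat shock proteins and chaperonins had 6 of 60 higher and deubiquitinating enzymes 5 of 52, and after quantile normalization 1 and 3 were.

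The vacuolar ATPase, the proton pump of lysosomes, had a median of -0.21 over 13 genes, although VMA21, which assembles it, was higher. Receptors of interleukins and colony stimulating factors had -0.19 over 28, with 2 called higher (7.14%) and 0 lower. Killer and natural killer receptors had -0.22 over 32, with 2 higher and 2 lower (6.25% each, against 6.30% and 1.69% of all genes).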
